A study of Mus musculus with 38 samples.

Results

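Assay B02 was 1 of 21 target assays read by qRT-PCR in mouse hearts after ischemia and reperfusion (I/R). It was chosen by measured values, namely a difference between Myriocin-treated and untreated injured mice that was lower at 96 h than at 24 h, whereas most assays of the panel went the other way. That pattern is therefore given as a description, with no test. The assays carry plate codes, and no table used here ties B02 to a gene, so its values are reported by code and no primer or gene sequence is shown for it.

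Male C57BL/6N mice, 8 to 10 weeks old, formed 6 groups with 38 animals in all. Sham mice (5 at each time) went through the surgery without ligation of the coronary artery, and no injection is stated for them. LAD mice (7 at each time) had the left anterior descending coronary tied for 30 min and then received empty solid lipid nanocarriers at reperfusion. MLAD mice (7 at each time) had the same ligation and received 20 μL of nanocarriers loaded with Myriocin in the left ventricle. Hearts were taken 24 or 96 h after surgery. RNA came from the at-risk area of the left ventricle in LAD and MLAD mice and from left ventricular tissue in Sham mice. The at-risk area is a mixed tissue, and a change in the share of a cell type cannot be told apart from a change in transcript per cell.

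Myriocin blocks serine palmitoyltransferase, the enzyme that opens the synthesis of sphingolipids, and so lowers ceramide, a lipid that builds up in stressed heart muscle. The adult heart draws most of its energy from fatty acids, and this use is depressed after I/R. The panel as a whole was built around that shift. According to the study's methods it covers the cardiac myosin heavy chains, the PPAR receptors with their co-activator PGC-1α, the lysosomal regulator TFEB and its target p62, carriers that bring fatty acids into the cell and into mitochondria, enzymes of fatty acid oxidation and lipolysis, and the perilipins that coat lipid droplets. Which of these B02 reads was not given in the sources used here.

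Each reading was a threshold cycle (Ct), the point in the PCR, counted in cycles, where fluorescence passed a fixed level, so that a lower Ct means more transcript. Every target reading came with the Ct of a reference assay, coded B10 and taken to be the endogenous control RPLI. The target Ct was subtracted from the reference Ct listed for that mouse, and the result is called relative expression here. It is in cycles, which is a log2 scale where each cycle doubles the product. For B02 both readings were present in 31 of 38 mice. All 7 empty mice belonged to the 24 h groups, which left 3 Sham, 4 LAD and 5 MLAD mice at 24 h against 5, 7 and 7 at 96 h. How many wells lie behind a reading is not given in the sources used here, so p-values measure only the spread between mice, technical error included. B02 was a late-crossing assay. Its target Ct ran from 29.8 to 32.0 with a median of 30.8, the fourth highest median of the 21 assays, and its reference Ct ran from 24.5 to 28.0.

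At 24 h, relative expression of B02 was highest in MLAD mice and lowest in LAD mice. The 3 Sham mice stood at -4.62, -4.66 and -4.59, a mean of -4.62 ± 0.03 (SD, n = 3). The 4 LAD mice stood at -5.64, -5.05, -5.07 and -4.57, a mean of -5.08 ± 0.44 (SD, n = 4). The 5 MLAD mice stood at -3.88, -4.40, -3.74, -4.08 and -3.94, a mean of -4.01 ± 0.25 (SD, n = 5). All 5 MLAD mice lay above every LAD and every Sham mouse, whereas 3 of the 4 LAD mice lay below the Sham mice and 1 above them.

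At 96 h the order was different, with Sham mice lowest and LAD mice highest by their means. The 5 Sham mice stood at -5.17, -5.54, -5.30, -5.13 and -5.21, a mean of -5.27 ± 0.16 (SD, n = 5). The 7 LAD mice ran from -4.58 to -3.93 with a median of -4.44 and a mean of -4.33 ± 0.27 (SD, n = 7). All 7 LAD mice were above all 5 Sham mice. The 7 MLAD mice ran from -5.69 to -3.10 with a median of -4.44 and a mean of -4.56 ± 1.04 (SD, n = 7). The MLAD mice reached both below the lowest Sham mouse, with 2 animals, and above the highest LAD mouse, with 2 others.

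**Figure D1:**
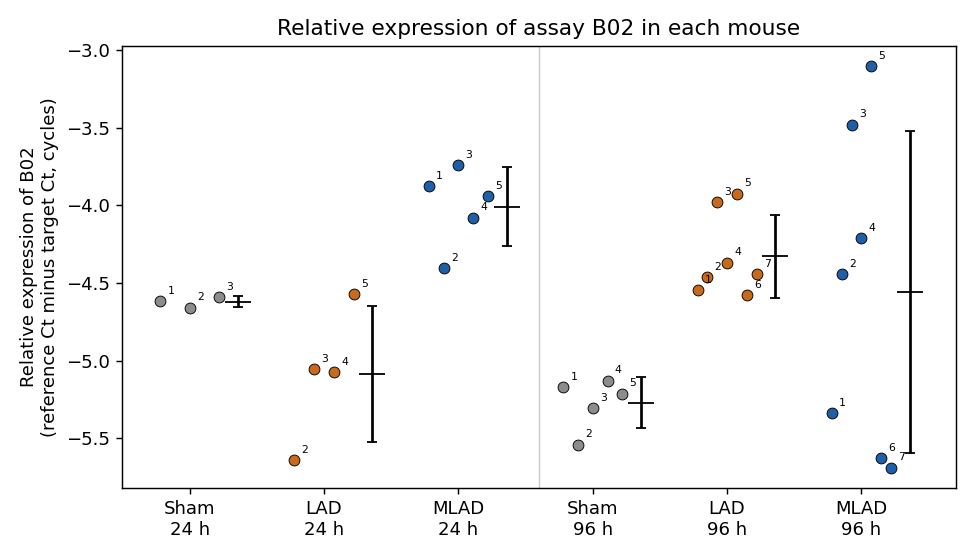
Relative expression of B02 (reference Ct minus target Ct, in cycles) in each mouse of the 6 groups, with the replicate number beside each point and bars for the mean ± SD. At 24 h the 5 MLAD mice (-4.40 to -3.74) sit above all 4 LAD mice, and at 96 h the 7 MLAD mice spread from -5.69 to -3.10 on both sides of the LAD mice.

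Ordered by mean, the groups ran from Sham at 96 h (-5.27) through LAD at 24 h (-5.08), Sham at 24 h (-4.62), MLAD at 96 h (-4.56) and LAD at 96 h (-4.33) to MLAD at 24 h (-4.01). The ranges of every pair of neighbours in this order overlapped. The gap was below the larger SD of the pair between Sham at 96 h and LAD at 24 h, between Sham at 24 h and MLAD at 96 h, and between MLAD and LAD at 96 h. It was above it between LAD and Sham at 24 h (0.46) and between LAD at 96 h and MLAD at 24 h (0.32). The LAD and MLAD means thus moved in opposite directions over time. From 24 to 96 h the LAD mean rose by 0.75 (SE 0.24), and the MLAD mean went from -4.01 to -4.56, a difference of -0.55 (SE 0.41). The Sham mean moved the same way as the MLAD mean, by -0.65 (SE 0.08).

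The difference of MLAD from LAD was the quantity the assay was chosen on. It was 1.07 (SE 0.25) on the log2 scale at 24 h, or 2.11-fold, and -0.23 (SE 0.40) at 96 h. The 96 h value ranged from -0.47 (without MLAD replicate 5) to -0.04 (without MLAD replicate 7) with 1 mouse left out. It was -0.41 without MLAD replicate 3, -0.10 without replicate 1 and -0.05 without replicate 6, and the difference of medians was -0.004. The second minus the first was -1.30 (SE 0.47). Across the 21 assays the median of this change was 1.42, with 18 assays above 0 and 3 below it. B02 was at the lower end, beside A01 at -1.19 and A03 at -0.46, while A04, the next assay on the other side of 0, was at 0.35. These 3 assays reached their negative values from different places. In A01 the MLAD mice were below the LAD mice at both times, by -1.33 at 24 h and -2.51 at 96 h. In A03 they were above at both, by 1.03 and 0.57. B02 was the assay with the highest difference at 24 h, where the panel median was 0.19, and it ranked 20 of 21 at 96 h, where the panel median was 1.54 and 19 assays were above 0.

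**Figure D2:**
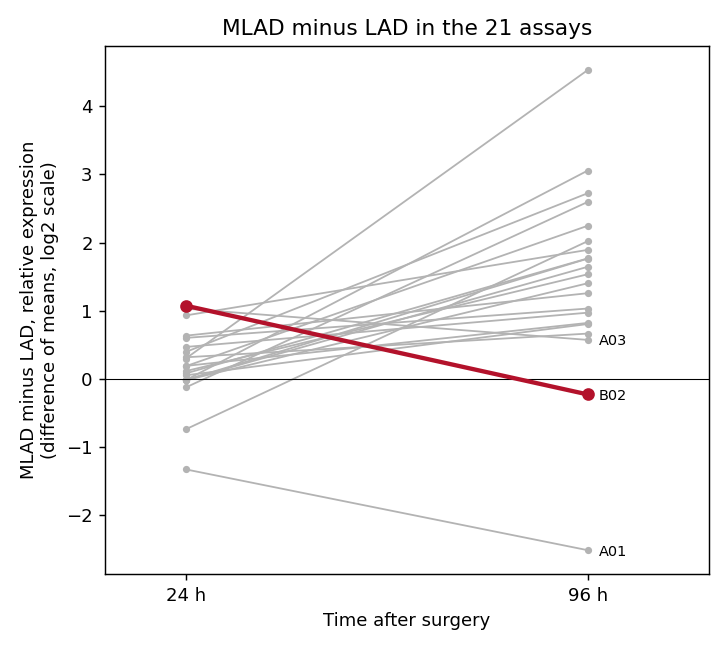
MLAD minus LAD in mean relative expression (log2 scale) at 24 h and 96 h, 1 line per assay, with B02 in red and the other assays in grey. B02 goes from 1.07 to -0.23, A01 and A03 also go down, and the other 18 assays go up.

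The 2 readings behind B02 were then taken apart. The target Ct itself was higher in MLAD than in LAD mice at both times, by 0.45 cycles (SE 0.22) at 24 h and by 0.31 cycles (SE 0.25) at 96 h, which is less transcript where no reference is applied. The reference Ct differed by 1.52 cycles (SE 0.38) at 24 h and by 0.08 cycles (SE 0.48) at 96 h. The change of the MLAD minus LAD difference from 24 to 96 h was -0.14 cycles (SE 0.34) in the target Ct and -1.45 cycles (SE 0.61) in the reference Ct. On the target alone, turned so that higher means more transcript, the change was 0.14, against -1.30 with the reference. With other references the change was -1.86 against the mean of all target assays and -0.77 against the mean of all reference readings of a mouse. B02 was chosen for going against most of the panel, so a negative value against the panel mean is not independent of that choice. With these 2 references MLAD minus LAD at 24 h was 0.051 and 0.32, in place of 1.07.

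The reference readings by group show where this lay. At 24 h the reference Ct was 26.9 ± 0.43 (SD, n = 3) in Sham, 25.5 ± 0.60 (SD, n = 4) in LAD and 27.0 ± 0.53 (SD, n = 5) in MLAD mice. All 4 LAD mice had a lower reference Ct than the 3 Sham mice, and 4 of the 5 MLAD mice had a higher one than every LAD mouse. At 96 h the Sham mean was 26.1 ± 0.39 (SD, n = 5), the LAD mean 25.9 ± 0.40 (SD, n = 7) and the MLAD mean 26.0 ± 1.20 (SD, n = 7), so that the means lay close together and only the MLAD mice spread widely. What moved the reference was not tested.

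The target Ct at 24 h was 31.6 ± 0.40 (SD, n = 3) in Sham, 30.6 ± 0.25 (SD, n = 4) in LAD and 31.0 ± 0.41 (SD, n = 5) in MLAD mice. At 96 h Sham mice were at 31.4 ± 0.36 (SD, n = 5), LAD mice at 30.3 ± 0.36 (SD, n = 7) and MLAD mice at 30.6 ± 0.55 (SD, n = 7). The order of the 3 groups was the same at both times, with LAD mice crossing earliest and Sham mice latest.

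**Figure D3:**
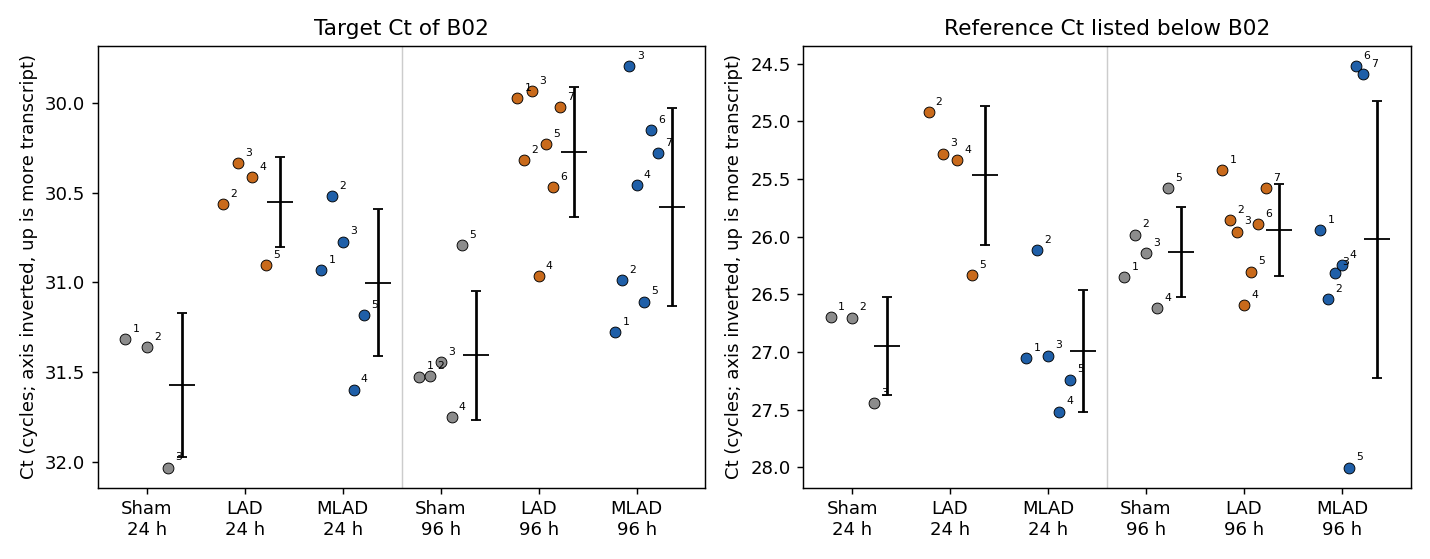
Target Ct of B02 (left) and the reference Ct listed with it (right) in each mouse, on inverted axes so that up is more transcript, with bars for the mean ± SD. The target has LAD earliest and Sham latest at both times, while the reference at 24 h averages 25.5 in LAD, 26.9 in Sham and 27.0 in MLAD mice.

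The wide spread of MLAD mice at 96 h also had 2 parts. In 3 of the 7 mice the reference Ct lay outside the range of the Sham and LAD mice at 96 h, which was 25.4 to 26.6. Replicate 5 had a reference Ct of 28.0 and the highest relative expression of the group, -3.10. Replicates 6 and 7 had 24.5 and 24.6 and the lowest values, -5.63 and -5.69. Without these 3 mice, an alternative added after the values were seen, MLAD minus LAD at 96 h was -0.04 in place of -0.23, and its change from 24 h was -1.11. Replicate 1, at -5.34, was also below every LAD mouse, with a reference Ct of 25.9, inside that range, and the highest target Ct of the group, 31.3. The SD of MLAD mice at 96 h was 3.88 times that of LAD mice in B02, the second highest of the 21 assays, where the median ratio was 0.62. Over all 6 groups the SD within groups was 0.42 cycles for the target Ct of B02 and 0.72 cycles for its reference Ct, both the second lowest of the panel, and 0.56 for relative expression, equal to the panel median.

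Reference readings of B02 also recurred in other assays, equal to the fourth decimal. Of its 31 readings, 15 appeared under the same sample number elsewhere, 10 of them with B03 and 8 with B04. A further comparison found 8 readings under another sample number, and all 8 of those numbers lay in the same group as the B02 mouse. Whether 1 number stands for 1 animal throughout the panel is therefore uncertain, but none of these recurrences crossed from one group to another. The Sham groups differed in this. At 24 h all 3 Sham readings recurred under the same number, while at 96 h 0 of 5 did and 4 recurred under another number. The comparison of Sham mice between the times, given below, rests on the pairing of target and reference by number for its SE, ranges and p.

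Each injured group was also set against the Sham mice of its time. LAD and MLAD share those Sham mice, and their means entered the choice of the assay, so these differences are not tested. LAD minus Sham was -0.46 (SE 0.22) at 24 h and 0.94 (SE 0.12) at 96 h, the latter 1.92-fold. The 24 h value was -0.28 without LAD replicate 2. It ranked second of the 21 assays at 96 h, where the panel median was -1.17 and 15 assays were below 0. MLAD minus Sham was 0.61 (SE 0.11) at 24 h, or 1.53-fold, and 0.71 (SE 0.40) at 96 h, or 1.64-fold. Without MLAD replicate 5 the 96 h value was 0.47, and against the mean of all target assays or of all reference readings of a mouse it was 1.27 or 1.52. With the same 2 references the 24 h value of MLAD minus Sham was 0.040 and 0.014, and that of LAD minus Sham -0.010 and -0.31. By the means with its listed reference, B02 thus stood above Sham in MLAD mice at both times and in LAD mice at 96 h. It stood below Sham in LAD mice at 24 h. At 96 h 2 of the 7 MLAD mice lay below every Sham mouse.

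All injured mice together were set against Sham mice as well. The mean over LAD and MLAD mice is independent of the difference between them only where both vary alike. From the variances in B02 the correlation of that mean with MLAD minus LAD was -0.50 at 24 h and 0.88 at 96 h, so these values also depend on the choice of the assay and are given with no test. At 96 h injured mice were above Sham mice by 0.83 (SE 0.21, 5 Sham and 14 injured mice), and 11 of the 14 injured mice were above every Sham mouse while 2 were below all of them. The panel median was -0.39 and B02 ranked 5 of 21 from the highest. The unadjusted exact permutation test called 52.4% of the assays in this comparison, 5 higher and 6 lower in injured mice. The size rested on the reference, with 2.18 against the mean of all target assays and 1.74 against the mean of all reference readings of a mouse. The first of these rises by construction where the other target assays fall in injured mice. On the target Ct alone injured mice crossed earlier than Sham mice, at 30.4 against 31.4 cycles, a difference of -0.98 (SE 0.21), and 10 of the 14 crossed earlier than every Sham mouse. The reference Ct differed between them by -0.15 cycles (SE 0.29).

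At 24 h injured mice differed from Sham mice by 0.13 (SE 0.22, 3 Sham and 9 injured mice), with 6 of the 9 injured mice above the Sham mice and 3 below. This comparison called 33.3% of the assays at an unadjusted p under 0.05. The target Ct of B02 was lower in injured mice by -0.77 cycles (SE 0.27), with 8 of the 9 crossing earlier than every Sham mouse. The reference Ct was also lower, by -0.63 cycles (SE 0.40), so that the earlier crossing was nearly offset in the pooled mean only. In LAD mice the reference Ct differed from Sham by -1.48 cycles (SE 0.39), more than the target Ct at -1.02 (SE 0.26). In MLAD mice the reference Ct differed by 0.04 cycles (SE 0.34) and the target Ct by -0.57 (SE 0.30). The 3 injured mice below the Sham mice in relative expression were all LAD mice.

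**Figure D4:**
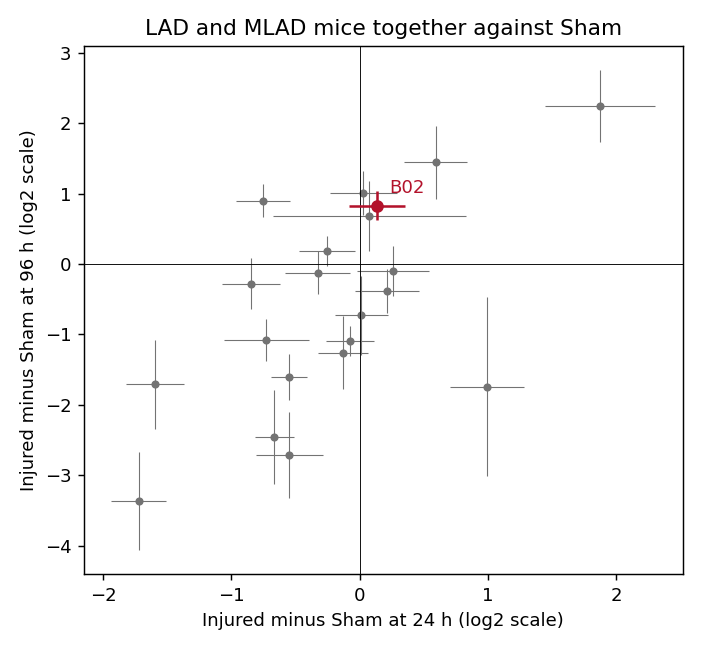
Difference of all injured (LAD and MLAD) mice from Sham mice in relative expression (log2 scale) at 24 h (horizontal) and 96 h (vertical), 1 point per assay with bars for the SE, B02 in red. B02 lies at 0.13 and 0.83, near 0 on the horizontal axis and above 0 on the vertical one.

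The Sham mice, which had no part in the choice of B02, were compared between the time points. Relative expression was lower at 96 h than at 24 h by -0.65 (SE 0.08, 3 and 5 mice), and the ranges did not overlap. With the exact permutation test p was 0.0357, the smallest that 3 against 5 mice allow, and the adjusted p was 0.24. In this comparison 3 of the 21 assays (14.3%) had a p under 0.05, and 15 of the 21 had too few Sham mice to reach it. The 14.3% therefore understates how common such a p was among the assays able to reach it. Limma over all mice gave an adjusted p of 0.592 for B02. The reference Ct of these Sham mice was lower at 96 h by -0.81 cycles (SE 0.30, exact permutation test, p = 0.0357) and the target Ct by -0.16 cycles (SE 0.28, exact permutation test, p = 0.643). As with the Myriocin difference, most of the move with time in Sham mice was in the reference Ct.

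In all injured mice B02 was at -4.49 ± 0.65 (SD, n = 9) at 24 h and -4.44 ± 0.74 (SD, n = 14) at 96 h. The difference was 0.04 (SE 0.29), in a comparison that called 52.4% of the assays, and it changed sign when any of 5 mice was left out (-0.10 to 0.14 over all). The change with time of the injured minus Sham difference was 0.69 (SE 0.55 in limma), in a fit that called 14.3% of the assays. On the target Ct alone, turned so that higher means more transcript, it was 0.21 (SE 0.48 in limma). Against the mean of all reference readings of a mouse it was 1.87, and against the mean of all target assays 2.16.

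The assays most like B02 over the 6 group means of relative expression were A04 (r = 0.63), B01 (r = 0.53) and A03 (r = 0.48), and the least like it was A02 (r = -0.51). These are correlations over 6 group means that share mice and, in part, reference readings, and they are given as a description. A04 shared with B02 its lowest mean in Sham mice at 96 h (-2.09) and a higher mean in MLAD (-0.76) than in LAD mice (-1.08) at 24 h. It parted from B02 at 96 h, where its MLAD mean of -0.78 was above its LAD mean of -1.44. A02 had its highest mean in Sham mice at 24 h (11.4) and its lowest in LAD mice at 96 h (7.81). On the target Ct alone A03 was again among the 3 most like B02 (r = 0.67), and A04 (r = 0.27) and B01 (r = 0.24) were not.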

How the data were processed

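Total RNA was reverse transcribed and amplified by the authors with SYBR green chemistry, and the values they deposited are Ct readings, not normalized, for every assay and mouse (threshold setting and number of wells not given in the sources used here). A second deposited table holds the authors' ratios of LAD and MLAD groups to Sham and was not used. Columns were matched to mice by the sample number in the labels. B02 was read with the reference row directly below it. The assay, the comparisons and the assays named were chosen with earlier results of these data known. Named were B02, its reference, the 3 assays most like it and the 1 least like it by Pearson's r, the assays with a negative change of MLAD minus LAD, and those sharing most reference readings.

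Differences in mean were compared with two-sided exact permutation tests (100000 resamples where both groups had 10 or more mice), p being 2 times the smaller tail, run on all 21 assays with Benjamini-Hochberg adjustment. The planned p-values of B02 for all injured mice are not printed, since their mean proved correlated with the difference the assay was chosen on, and Sham at 96 h against 24 h is the test of B02 that remains. The change of the injury difference with time was fitted in limma 3.58.1 (R 4.3.3) over Sham and injured mice at both times. SE is that of a difference of means with unequal variances, and for limma the moderated one. Both procedures were tested on simulated data. Same-numbered LAD and MLAD mice at 24 h deviated together across assays in all 7 pairs (r from 0.15 to 0.65), by the replicate numbers in the labels. In B02 the 4 pairs present at 24 h gave a mean difference of 1.04 ± 0.31 (SD), MLAD higher in each. At 96 h same-numbered LAD and MLAD mice did not deviate together (pooled r = -0.051, 3 of 7 pairs over 0.1). The 7 pairs of B02 there gave -0.23 ± 0.80 (SD), with MLAD higher in 4. Both means restate the difference the assay was chosen on. Alternatives were other references, a Ct limit of 35, the linear scale, medians, limma, the replicate block and each mouse left out. Computation was in Python 3.11.15 (pandas 2.3.3, SciPy 1.17.1, NumPy 2.4.6), with plots by matplotlib 3.10.9.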

Additional observations from a re-analysis of the deposited data

How the results depend on the processing

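Of 105 results under other settings 76 kept their direction and side of 0.05, or moved by less than 1 SD where no test was made. Another 8 lost a p under 0.05, 5 gained one, 8 changed sign and 8 moved by more. With 1 mouse left out, 250 of 271 were kept in the same sense and 16 lost a p under 0.05. The remaining 5 changed sign, all 5 in injured mice at 96 h minus 24 h (-0.10 to 0.14). These counts include the comparisons of all injured mice, which depend on the choice of the assay. They also include the mean level of each group, which cannot move by 1 SD when 1 mouse is left out. Those fits were bound to be kept and say nothing about stability. On raw target Ct, MLAD minus LAD was -0.45 at 24 h, LAD minus Sham 1.02 at 24 h, the change of MLAD minus LAD 0.14 and Sham at 96 h minus Sham at 24 h 0.16 (exact permutation test, p = 0.643), all with the opposite sign. Injured minus Sham at 24 h became 0.77. By construction these moves equal the difference in the reference Ct.

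With the mean of all target assays as reference, centred by assay, MLAD minus LAD was 0.051 at 24 h and -1.81 at 96 h, LAD minus Sham -0.010 and 3.09, MLAD minus Sham 0.040 at 24 h, injured at 96 h minus 24 h 1.04 and the change of injured minus Sham with time 2.16. With the mean reference Ct of the mouse over all its assays, MLAD minus LAD was 0.32 at 24 h, LAD minus Sham 1.96 at 96 h, MLAD minus Sham 0.014 at 24 h, injured minus Sham -0.13 at 24 h, in place of 0.13, and its change with time 1.87. That mean reference differed from Sham by -0.90 cycles at 24 h and 0.76 at 96 h, where the reference listed with B02 gave -0.63 and -0.15. The cause was not tested.

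Injured minus Sham at 96 h was 0.83 in limma too. It is given with no test, since it depends on the choice of the assay. Sham at 96 h minus 24 h (-0.65, exact permutation test, adjusted p = 0.24) and its reference Ct (-0.81, adjusted p = 0.171) went past 0.05 after Benjamini-Hochberg adjustment. In limma they did so as well, at -0.65 (adjusted p = 0.592, and 0.278 with LAD and MLAD weighted equally) and -0.81 (adjusted p = 0.377). When limma took the replicate number as a block, Sham at 96 h minus 24 h was -0.76 (adjusted p = 0.563), its reference Ct -1.01 (adjusted p = 0.350), and injured minus Sham 0.0021 at 24 h and 1.08 at 96 h. The block turned the sign of the reference Ct of injured mice, to 0.18 against Sham at 96 h and 0.020 at 96 h against 24 h. The numbers do not pair Sham with injured mice, with at most 2 of 5 pairs correlated over 0.1. With 1 mouse left out, injured minus Sham at 96 h ranged from 0.73 to 0.92. Sham at 96 h minus 24 h ranged from -0.69 to -0.58 and its reference Ct from -0.94 to -0.57, none of the 8 fits of each under 0.05, since the mice left cannot reach it.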
